A study of Mus musculus with 4 samples.

Results

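The Snail, Zeb and Twist genes encode the transcription factors best known for driving epithelial to mesenchymal transition, and they were followed here in sorted mouse cells that carry or lack Snai1. The set was defined by gene name and holds 7 genes of the 17097 named on the array, Snai1, Snai2, Snai3, Zeb1, Zeb2, Twist1 and Twist2, and all 13 of their probe sets. There were 4 arrays, 1 for each group. The groups were KO Flk1+, F/F Flk1+, KO Flk1- and F/F Flk1-. KO cells came from Snai1 knockout embryonic stem cells and F/F is the labels' name for the control line. Stem cells of both lines were left to differentiate as embryoid bodies, which are floating aggregates started in hanging drops. On day 4 they were sorted by antibody for Flk1, a growth factor receptor of early mesoderm whose gene is Kdr. For KO Flk1- cells the description gives day 4 and the source name gives day 5, which touches every comparison that uses this array. The sources used here state neither how many clones or cultures stand behind each line nor which part of Snai1 was deleted. With 1 array per group, replicate error is unknown for every difference, and no test was run.

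Snail proteins (Snai1, Snai2, Snai3) bind DNA through zinc fingers and repress epithelial genes such as Cdh1, the gene of the epithelial cadherin. Zeb1 and Zeb2 are larger factors with a zinc finger cluster at each end, which repress many of the same genes and are themselves held down by the miR-200 family. Twist1 and Twist2 are basic helix-loop-helix factors that pair with E proteins such as Tcf3. In the gastrulating mouse embryo Snai1 is needed for mesoderm cells to leave the epithelial epiblast properly, and the question put to the members was whether any of the other 6 genes is higher where Snai1 is missing.

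None of the other 6 genes was higher by 2-fold or more in KO cells of either fraction. Of all genes tested, 0.873% were so in Flk1+ and 0.389% in Flk1- cells, so a count of 0 among so few genes is near the share of all genes. Twist2 was not tested in Flk1- cells, where it was below the floor. Among the members with signal, 4 of 6 were lower in KO Flk1+ and 4 of 5 in KO Flk1- cells. Of all genes tested 57.4% and 43.1% were lower, so the count in Flk1+ cells is near the share of all genes. Snai2, Zeb1 and Zeb2 were lower in KO cells of both fractions. On the probe set used for each gene the difference was larger in Flk1- than in Flk1+ cells. For Zeb1 this gap between the fractions was only 0.04 with the mean of its probe sets. For Zeb2 it was 0.15, under the SD of 0.228 among genes below the floor. Twist2 was above the floor only in F/F Flk1+ cells. Twist1 differed little in Flk1+ cells and was lower in KO Flk1- cells, and Snai3 stayed at the edge of detection on all 4 arrays. All values are log2 expression values per probe set, and the floor of 3.19, set at percentile 40 over all genes and arrays, separates genes with signal from those without. In bulk samples, fewer cells of a type and less RNA per cell cannot be told apart, which holds for every gene named here. A probe set's value is not set against another probe set's, since each has its own brightness.

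**Figure D1:**
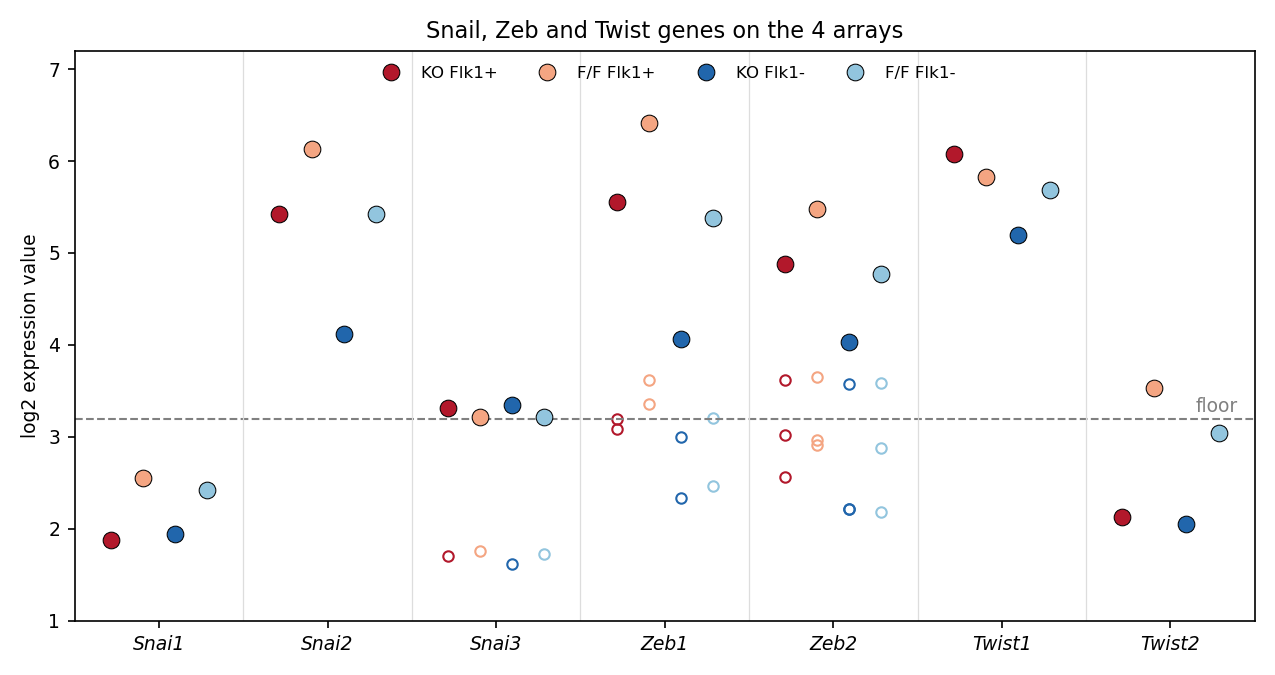
The log2 expression value (vertical axis) of each gene is shown on the KO Flk1+, F/F Flk1+, KO Flk1- and F/F Flk1- arrays, 1 array per group. Large points are the probe set used for the gene, small open points its other probe sets, and the dashed line is the floor of 3.19. Snai2, Zeb1 and Zeb2 are each highest in F/F Flk1+ and lowest in KO Flk1- cells, and Snai1 is below the floor throughout.

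The targeted gene came first. Snai1 (chr2:167538195-167542814 in GRCm38.p6, as for all gene positions here) had 1 probe set, with values of 1.88 in KO Flk1+ and 2.56 in F/F Flk1+ cells, and of 1.94 in KO Flk1- and 2.42 in F/F Flk1- cells. Both KO values lay under both F/F values, but all 4 were below the floor, so no fold is given. The differences, KO minus F/F, were -0.68 in Flk1+ and -0.48 in Flk1- cells. Among the 6142 genes below the floor on all 4 arrays, the difference had an SD of 0.176 in Flk1+ and 0.166 in Flk1- cells. In that set 11 genes, Snai1 included, were as low as Snai1 or lower in Flk1+ cells and 35 in Flk1- cells, and 2 genes, again with Snai1, were so in both. Snai1 was thus near the low end of the genes without signal in both fractions, in the direction its labels give. The sources used here do not place the probe set inside or outside the deleted part, so these values do not settle the check of the genotype.

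The Snai1 promoter is shown because Snail factors bind the E-box CAGGTG, and this gene's own promoter holds one. The 250 bases before its start (chr2:167537945-167538194, + strand, RefSeq, GRCm38.p6) carry 1 match, in capitals, as CACCTG, the motif read on the other strand, from 126 to 121 bases before the start.
Snai1: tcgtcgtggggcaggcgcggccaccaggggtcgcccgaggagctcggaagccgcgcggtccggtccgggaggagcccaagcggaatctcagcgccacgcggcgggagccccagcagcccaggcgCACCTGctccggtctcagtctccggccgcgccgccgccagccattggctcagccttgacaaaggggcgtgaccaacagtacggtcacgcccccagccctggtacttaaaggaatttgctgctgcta
Of the 7 genes, 4 (Snai1, Zeb2, Twist1 and Twist2) had promoter entries, 7 in all, and the Snai1 entry was the only 1 of these 7 with CAGGTG on either strand. Among all 32851 promoter entries, 17.2% held the motif in the same window. A match is a description of the letters and not evidence of a bound site.

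Snai2, also called Slug (chr16:14705852-14709395), is the closest relative of Snai1 among the members and acts in neural crest and mesoderm. Its 1 probe set had 5.43 in KO Flk1+ and 6.13 in F/F Flk1+ cells, and 4.12 in KO Flk1- and 5.43 in F/F Flk1- cells. KO cells were lower in both fractions, by a difference of -0.70 in Flk1+ cells (1.63-fold) and -1.31 in Flk1- cells (2.47-fold). Of all genes tested, 2.57% were as low as this or lower in Flk1+ cells and 0.456% in Flk1- cells.

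Snai3 (chr8:122454204-122460809), the least studied Snail gene, had 2 probe sets. One, designed on an EST record (a partial transcript read), had 3.32 in KO Flk1+ and 3.21 in F/F Flk1+ cells, and 3.34 in KO Flk1- and 3.22 in F/F Flk1- cells. The other, designed on the RefSeq mRNA, was between 1.62 and 1.75 on the 4 arrays, below the floor. The differences of the first, 0.11 in Flk1+ and 0.13 in Flk1- cells, were smaller than the SD of genes without signal. No Snai3 difference between genotypes was detectable at this signal.

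Zeb1, on chromosome 18, had 3 probe sets, and the brightest, designed on the RefSeq mRNA, stood for the gene. It had 5.55 in KO Flk1+ and 6.41 in F/F Flk1+ cells, and 4.06 in KO Flk1- and 5.39 in F/F Flk1- cells. KO cells were lower by a difference of -0.86 in Flk1+ cells (1.82-fold) and -1.33 in Flk1- cells (2.51-fold), and 1.46% and 0.437% of all genes tested in those fractions were as low or lower. The other probe sets, both designed on EST records, were close to or under the floor. One was at 3.08 in KO Flk1+ against 3.62 in F/F Flk1+ cells, and at 2.99 in KO Flk1- against 3.21 in F/F Flk1- cells. The other was at 3.20 in KO Flk1+ against 3.35 in F/F Flk1+ cells, and at 2.34 in KO Flk1- against 2.47 in F/F Flk1- cells. All 3 were lower in KO cells of both fractions, but with the mean of the probe sets the Zeb1 differences were -0.52 and -0.56, and the 2-fold call in Flk1- cells was lost.

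Zeb2, also called Sip1 (chr2:44983512-45117442), had 4 probe sets. The RefSeq mRNA probe set, which stood for the gene, had 4.88 in KO Flk1+ and 5.47 in F/F Flk1+ cells, and 4.03 in KO Flk1- and 4.78 in F/F Flk1- cells. The differences were -0.59 (1.51-fold lower in KO cells) in Flk1+ and -0.74 (1.67-fold lower) in Flk1- cells, and 4.26% and 1.73% of all genes tested were as low or lower. An EST probe set that was above the floor on all 4 arrays differed by only -0.03 and -0.01, with 3.62 in KO Flk1+ and 3.65 in F/F Flk1+ cells and 3.57 in KO Flk1- and 3.59 in F/F Flk1- cells. The remaining pair was below the floor throughout. The Zeb2 difference thus rests on 1 probe set, and with the mean of all 4 it was -0.23 in Flk1+ and -0.34 in Flk1- cells.

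Twist1 (chr12:33957671-33959831), a factor of head mesenchyme and neural crest, had 6.07 in KO Flk1+ and 5.83 in F/F Flk1+ cells, and 5.19 in KO Flk1- and 5.68 in F/F Flk1- cells on its 1 probe set. It was the only member well above the floor that was not lower in KO Flk1+ cells, with a difference of 0.24 (1.18-fold higher), which 14.1% of all genes tested reached or passed. In Flk1- cells KO was lower, with a difference of -0.49 (1.40-fold), and 3.78% of genes were as low or lower.

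Twist2, also called Dermo1 (chr1:91801461-91848034), had 2.13 in KO Flk1+ and 3.53 in F/F Flk1+ cells, and 2.05 in KO Flk1- and 3.05 in F/F Flk1- cells on its 1 probe set. Both KO values were below both F/F values. Only the F/F Flk1+ value was above the floor, so Twist2 was at least 1.26-fold lower in KO Flk1+ cells, and no fold is given in Flk1- cells. The deposited values differed by -1.40 in Flk1+ and -0.999 in Flk1- cells.

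The members can be counted against the background of all genes above the floor on at least 1 of the 2 arrays compared. In Flk1+ cells 6 of the 7 members were tested (Snai1 was not), and 0 were 2-fold or more higher in KO cells, where 0.873% of all genes were. In the same cells 1 member, Twist2, was 2-fold or more lower in the deposited values, where 0.976% of all genes were. Twist2 passed the floor only through the F/F array, where it was high, and the call is lost with a floor at percentile 50 or with its KO value raised to the floor. In Flk1- cells 5 members were tested (Snai1 and Twist2 were not), and 0 were 2-fold or more higher, against 0.389% of all genes. There 2 members, Snai2 and Zeb1, were 2-fold or more lower, against 0.949% of all genes. With 1.5-fold as the rule, 4 members (Snai2, Zeb1, Zeb2 and Twist2) were lower in KO Flk1+ cells, where 4.42% of genes were, and 3 (Snai2, Zeb1 and Zeb2) in KO Flk1- cells, where 2.53% were. Against the floor Twist2 reaches only 1.26-fold, so 3 of the 4 in Flk1+ cells do not rest on a value without signal. Averaged over their probe sets, Zeb1 differed by -0.52 in Flk1+ and -0.56 in Flk1- cells, and Zeb2 by -0.23 and -0.34. These are all under 1.5-fold, so of Snai2, Zeb1 and Zeb2 only Snai2 stays past the 1.5-fold rule in either fraction. At that rule 0 members were higher in either fraction, where 3.26% of genes in Flk1+ and 2.97% in Flk1- cells were. Where a gene had several probe sets above the floor, their differences lay a median of 0.272 apart in Flk1+ and 0.222 in Flk1- cells. These gaps come from probe sets read on the same 2 arrays and hold no error between arrays, sorts or RNA samples. Zeb1 was among the 0.889% of such genes with a gap of 1 or more in Flk1- cells, at -1.33 against -0.22. The median difference of the members tested, Twist2 included in Flk1+ cells, was -0.65 in Flk1+ (-0.47 with Twist2 at its bound) and -0.74 in Flk1- cells, beside -0.05 and 0.04 over all genes tested. Of all genes tested 57.4% were lower in KO Flk1+ and 43.1% in KO Flk1- cells, and the counts of the gene lists further on are to be read against these shares.

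**Figure D2:**
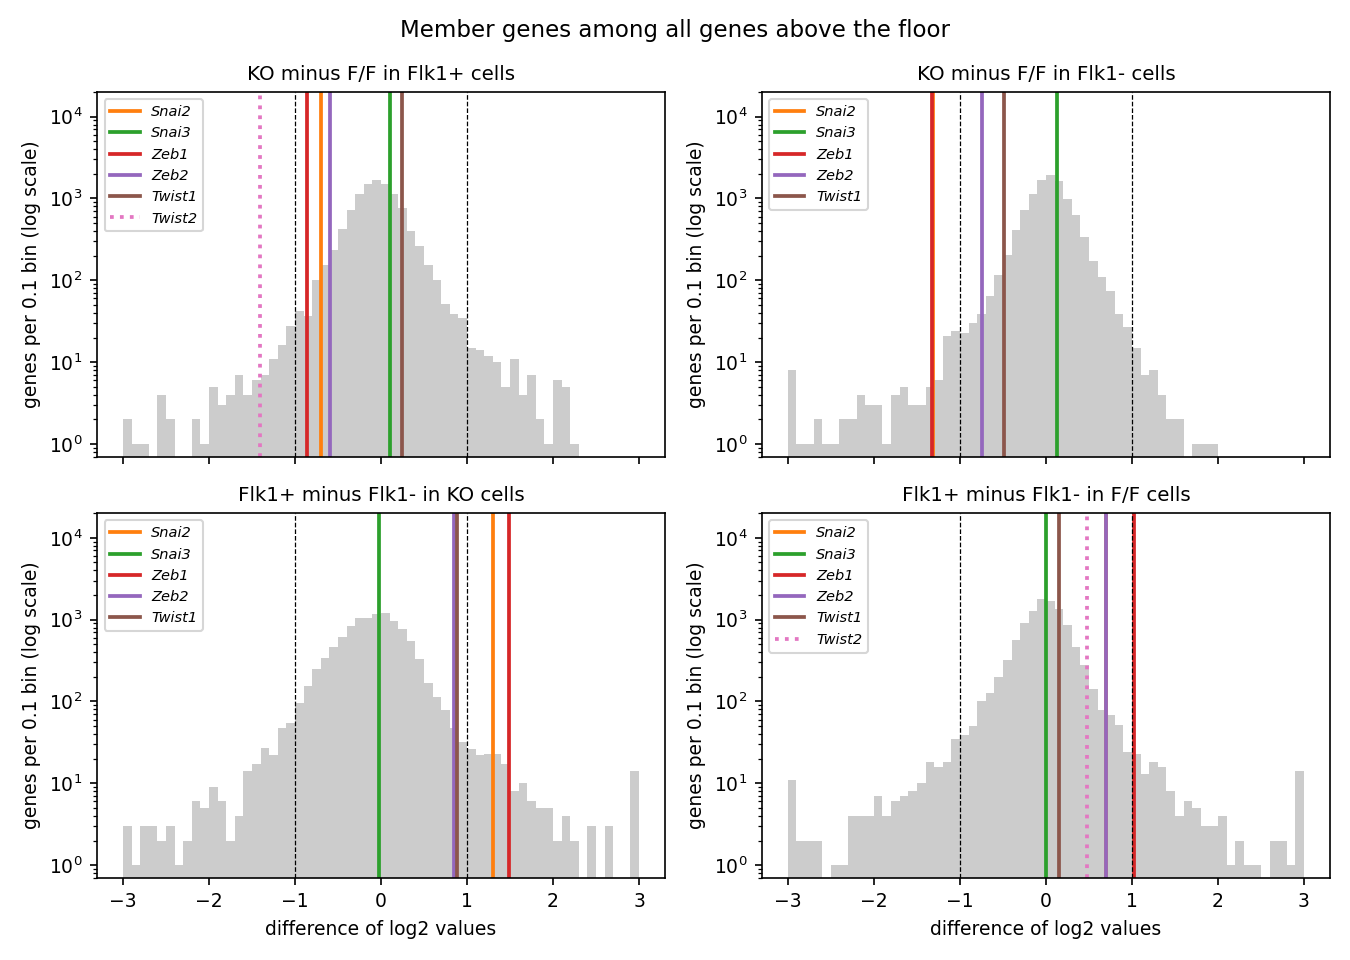
Grey bars count all genes above the floor by their difference of log2 values (horizontal axis, bins of 0.1, genes beyond 3 in size drawn in the end bins, counts on a log scale), 1 panel per comparison of 2 arrays. Coloured lines mark the members, dotted where the lower value is below the floor, and dashed lines mark 2-fold. In both genotype panels Snai2, Zeb1 and Zeb2 lie left of 0, and in Flk1- cells the lines of Snai2 and Zeb1 nearly coincide at -1.31 and -1.33.

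The genotype differences were also set against each other across the fractions, as the difference in Flk1+ minus that in Flk1- cells. It was 0.73 for Twist1, 0.60 for Snai2, 0.47 for Zeb1, 0.15 for Zeb2, -0.02 for Snai3 and -0.40 for Twist2, whose values are mostly below the floor, beside a median of -0.07 (interquartile range -0.29 to 0.15) over all 10955 genes with signal. No member reached 1 in size, and whether the genotype difference depends on the fraction was not tested, since this needs replicates. For Zeb1 it was 0.04 with the mean of the probe sets.

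The sort comparison asked where the members lie relative to Flk1 itself. Kdr was at 9.03 in Flk1+ and 3.88 in Flk1- KO cells, and at 8.92 in Flk1+ and 4.55 in Flk1- F/F cells, as the sort labels say. All 9 markers of Flk1+ mesoderm and blood vessel precursors (Kdr, Etv2, Tal1, Lmo2, Fli1, Erg, Sox18, Pecam1 and Cdh5) were above the floor on both Flk1+ arrays. In Flk1- cells 4 were in KO and 3 in F/F cells. Of the 9, 8 were 2-fold or more higher in Flk1+ cells of both genotypes, beside 1.62% of all genes in KO and 1.2% in F/F cells. Pecam1 was the exception, lower in Flk1+ than in Flk1- KO cells (3.71 against 4.36) and only 0.15 higher in Flk1+ F/F cells.

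Zeb1, Snai2 and Zeb2 were higher in Flk1+ than in Flk1- cells of both genotypes. The Zeb1 difference, Flk1+ minus Flk1-, was 1.49 in KO (2.82-fold) and 1.03 in F/F cells (2.04-fold). For Snai2 it was 1.31 in KO (2.47-fold) and 0.70 in F/F cells (1.63-fold), and for Zeb2 it was 0.85 in KO and 0.70 in F/F cells. Twist1 was higher in Flk1+ cells by 0.88 in KO and by 0.15 in F/F cells, and Snai3 differed by -0.02 and less than 0.01 in size. In KO cells 2 of 5 members tested, Snai2 and Zeb1, were 2-fold or more higher in Flk1+ cells, against 1.62% of all genes, and 0 were lower, against 2.17%. In F/F cells 1 of 6, Zeb1, was higher, against 1.2% of all genes, and 0 were lower, against 1.51%. With 1.5-fold as the rule, 4 of 5 in KO cells (Snai2, Zeb1, Zeb2 and Twist1) and 3 of 6 in F/F cells (Snai2, Zeb1 and Zeb2) were higher in Flk1+ cells, where 4.35% and 3.48% of genes were. At that rule 0 were lower in either genotype, where 10.6% of genes in KO and 4.76% in F/F cells were. With the mean of its probe sets Zeb1 was at 0.81 in KO and 0.78 in F/F cells, under 2-fold in both. Zeb2 was likewise at 0.51 in KO and 0.40 in F/F cells, under 1.5-fold in both. Its EST probe set above the floor on all 4 arrays differed by only 0.05 in KO and 0.07 in F/F cells. These sort comparisons share arrays with the genotype comparisons: the KO Flk1- array, lowest of the 4 for Snai2, Zeb1, Zeb2 and Twist1, enters one of each.

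Profiles over the 4 arrays were compared after centring each gene on its own mean, and the distance between 2 genes is the root mean square of the 4 gaps, in log2 units. Only members with signal that spanned 1 or more were used, namely Snai2, Zeb1, Zeb2 and Twist2, against 10954 other genes. The nearest gene to Snai2 was Capn6, which encodes a calpain without protease activity, at 0.079, followed by Vim, which encodes the intermediate filament of mesenchymal cells, at 0.091 and Jcad, a junction protein of endothelial cells, at 0.093. The nearest to Zeb1 were Adgra2, an adhesion receptor of vessel growth, at 0.091, the collagen gene Col5a1 at 0.098, and again Vim at 0.102. Snai2 had rank 4 among the genes nearest to Zeb1, at a distance of 0.140. For Zeb2 the nearest were Pwwp2b at 0.061, Fn1, the gene of the matrix protein fibronectin, at 0.061 and Nol4l at 0.067. The Zeb1 and Zeb2 profiles are each those of 1 probe set, spanning 2.35 and 1.44. The Zeb2 EST probe set above the floor on all 4 arrays spanned only 0.08, so its neighbours would differ. For Twist2 the nearest were Kalrn at 0.074, the BMP inhibitor gene Smad6 at 0.110 and the transcription factor gene Tbx3 at 0.114, but only 1 of its 4 values is above the floor, so its profile rests mostly on values without signal. With 4 points that share a normalization, such likeness is a description only.

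**Figure D3:**
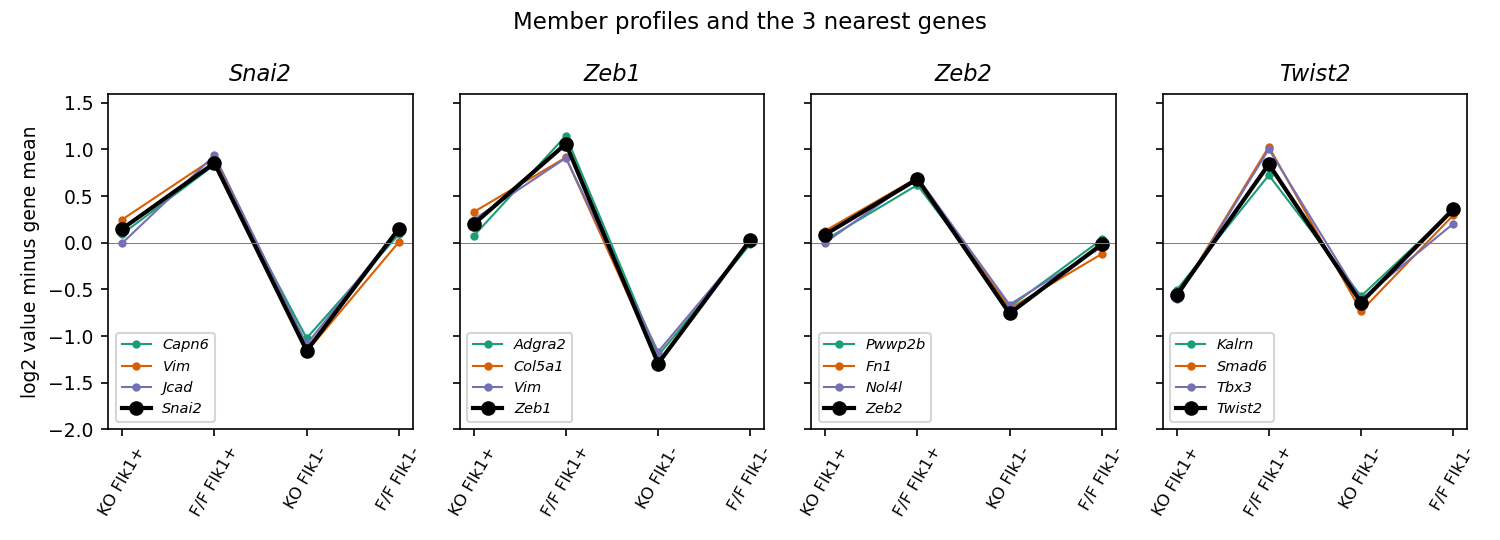
Log2 values minus the mean of each gene (vertical axis) are drawn on the KO Flk1+, F/F Flk1+, KO Flk1- and F/F Flk1- arrays for 4 members (black) and the 3 genes with the nearest profile (colour), with lines joining the values of a gene. Snai2, Zeb1 and Zeb2 peak in F/F Flk1+ and are lowest in KO Flk1- cells; for Twist2 only the F/F Flk1+ value is above the floor.

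Genes that Snail, Zeb and Twist factors are known to repress were mostly higher in KO cells. Of 31 such epithelial genes 30 were on the array. In Flk1+ cells 27 were tested, of which 21 were higher and 6 lower in KO cells, with a median of 0.55. Of the 21, 6 were 2-fold or more higher, beside 0.873% of all genes tested. One of the 6, Rab25, was under the floor in F/F Flk1+ cells, and 5 remain with such values raised to the floor. In Flk1- cells 28 were tested, of which 26 were higher, with a median of 0.39 (0.34 with values below the floor raised to it). Only 1 of the 26, Tjp3, was 2-fold or more higher, beside 0.389% of all genes tested. Cdh1 was at 7.84 in KO and 6.05 in F/F Flk1+ cells, a difference of 1.79, and at 8.63 in KO and 7.76 in F/F Flk1- cells, a difference of 0.87. The claudin genes Cldn7 and Cldn6, whose proteins seal tight junctions, differed by 1.55 and 1.54 in Flk1+ and by 0.40 and 0.30 in Flk1- cells. Spint1, an inhibitor of epithelial surface proteases, differed by 1.36 and 0.41. In F/F cells 23 of 27 of these genes were lower in Flk1+ than in Flk1- cells, beside 51.7% of all genes tested. This fraction order is opposite to that of Zeb1 and Snai2, and a link between them was not tested.

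Windows of 30 bases from promoters of this list are shown because they hold the E-box (capitals) that Snail and Zeb zinc fingers recognise. For each gene the match nearest to an annotated start is given, written 5′ to 3′ on the gene's strand. These 9 genes were chosen after their values were seen, as the listed genes with a match that were more than 0.5 higher in at least one fraction of KO cells.
Epcam (chr17:87635948-87635977, + strand): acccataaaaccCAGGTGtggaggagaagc
Cldn6 (chr17:23679260-23679289, + strand): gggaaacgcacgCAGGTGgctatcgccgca
Cldn7 (chr11:69965352-69965381, + strand): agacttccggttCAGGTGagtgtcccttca
Rab25 (chr3:88548315-88548344, - strand): cCACCTGtgcccCAGGTGcccagcggagct
Ap1m2 (chr9:21312334-21312363, - strand): agacgcgctCACCTGgcggctCACCTGggc
Spint2 (chr7:29281978-29282007, - strand): gccgcatctgccccgccccgcCAGGTGcgc
Ocln (chr13:100552549-100552578, - strand): ctaggggctcggCAGGTGggtcccagcgca
Tjp3 (chr10:81291268-81291297, - strand): ccacaaaccctccCACCTGcaggccggcct
Crb3 (chr17:57062171-57062200, + strand): gccccgcccctctcagccaggctCAGGTGc
Epcam, an epithelial adhesion gene, differed by 1.28 in Flk1+ and 0.61 in Flk1- cells, and Rab25, a gene of epithelial membrane traffic, was at least 1.997-fold higher in KO Flk1+ cells and differed by 0.53 in Flk1- cells. Ap1m2, a subunit of the epithelial clathrin adaptor, differed by 0.97 and 0.67, and the protease inhibitor gene Spint2 by 0.81 and 0.49. The tight junction genes Ocln and Tjp3 differed more in Flk1- cells, by 0.64 and 0.55 in Flk1+ and by 0.99 and 1.05 in Flk1- cells. The motif and the difference did not always go together. The keratin genes Krt8 and Krt18 hold it and differed by -0.14 and 0.17 in Flk1+ cells, whereas Spint1, at 1.36, has no match in its entry. Crb3, a polarity gene with a match, was 0.67 higher in KO Flk1+ cells and differed by -0.15 in Flk1- cells. Of the 16 listed genes with a promoter entry that were tested in Flk1+ cells, 12 held CAGGTG on either strand in the 250 bases before a start, against 18.6% of all 8630 genes tested with an entry. The list was made of genes known as targets, some of them because of such motifs, so this share is no independent evidence. In Flk1+ cells the 12 genes with the motif had a median difference of 0.74, with 10 higher in KO cells, and the 4 without had a median of 0.27, with 3 higher. In Flk1- cells the medians were 0.44 with the motif and 0.10 without. Over all genes tested the medians with and without the motif were close, at -0.015 and -0.057 in Flk1+ and at 0.060 and 0.035 in Flk1- cells. Over all genes 2-fold or more higher in KO Flk1+ cells that had an entry, 28 of 70 held the motif, and of those 2-fold or more lower, 9 of 72 (12.5%). In Flk1- cells the shares were 9 of 28 (32.1%) and 9 of 66 (13.6%). Genes with several promoter entries have more chances of a match, and no test was made of these shares.

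Mesenchymal genes went the other way. Of 22 listed, 20 were on the array and 15 were tested in each fraction, and 14 of the 15 were lower in KO cells in Flk1+ as well as in Flk1- cells, 4 of them 2-fold or more in each, beside 0.976% and 0.949% of all genes tested. Their median was -0.54 in Flk1+ and -0.75 in Flk1- cells (-0.63 in Flk1- cells with values below the floor raised to it). Acta2, the smooth muscle actin, was at 4.03 in KO and 6.45 in F/F Flk1+ cells, and at 3.92 in KO and 6.08 in F/F Flk1- cells. Cdh11, a mesenchymal cadherin, differed by -1.54 in Flk1+ cells and was at least 3.17-fold lower in KO Flk1- cells. The collagen gene Col1a1 differed by -2.55 in Flk1+ cells and was at least 2.81-fold lower in KO Flk1- cells, and Col3a1 was at least 3.74-fold lower in KO Flk1+ cells. Cdh2, the cadherin that replaces Cdh1 in mesoderm, differed by -0.75 in Flk1+ and -0.25 in Flk1- cells.

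**Figure D4:**
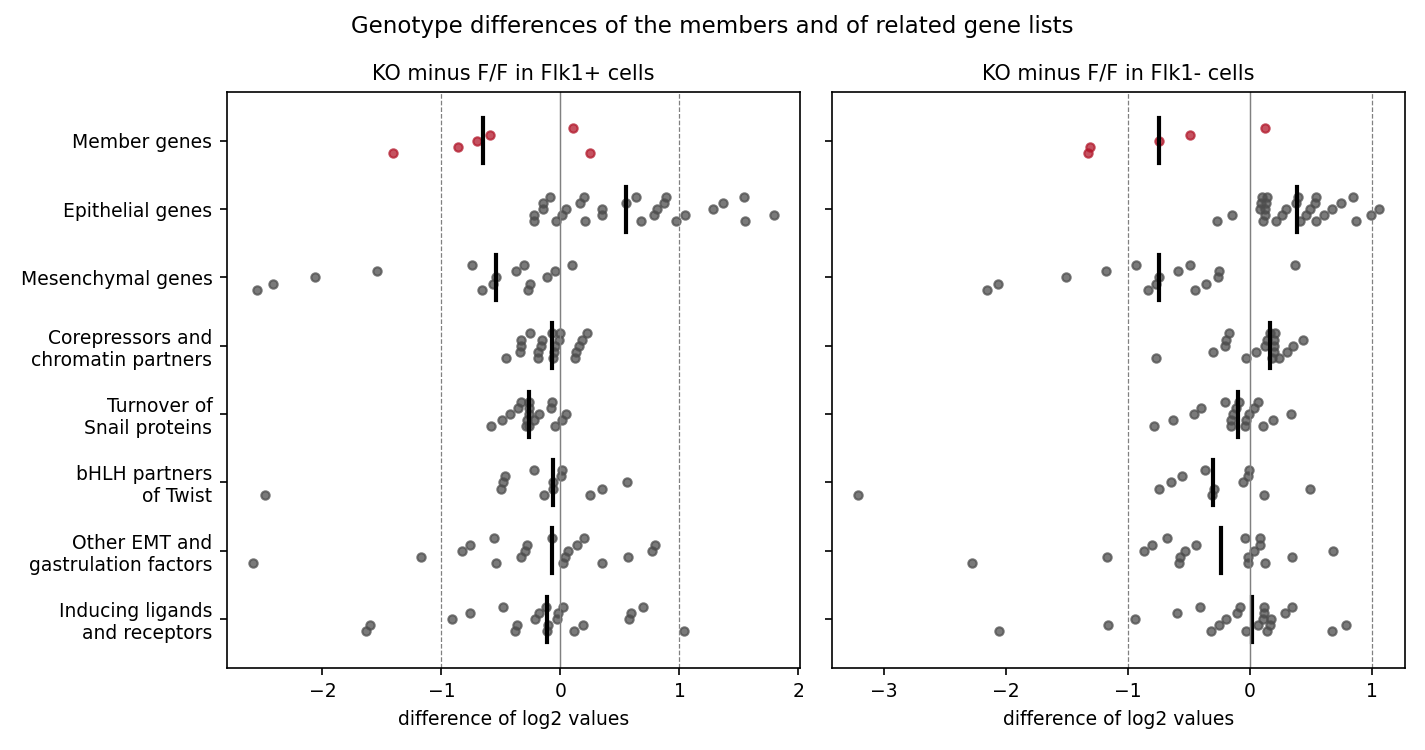
Points are the differences of log2 values, KO minus F/F (horizontal axis), of genes above the floor in Flk1+ cells (left) and Flk1- cells (right), for the members (red) and 7 lists of related genes (grey), with the median as a black bar and 2-fold as dashed lines. The epithelial medians lie at 0.55 and 0.39, the mesenchymal ones at -0.54 and -0.75, and those of corepressors at -0.07 and 0.16.

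The partners of these factors differed less. Of 20 corepressors and chromatin partners tested in Flk1+ cells, 5 were higher and 15 lower in KO cells with a median of -0.07, and of 19 in Flk1- cells 13 were higher with a median of 0.16; 0 were 2-fold apart. In each fraction this list leaned the same way as all genes tested, 57.4% of which were lower in KO Flk1+ and 43.1% in KO Flk1- cells. Ctbp2, a corepressor of Zeb factors, differed by 0.16 and 0.43 in Flk1+ and Flk1- cells, Suz12, a subunit of Polycomb complex PRC2, by -0.01 and 0.35, and Rcor1, a partner of the demethylase Kdm1a, by -0.46 and -0.20. Loxl2, a lysyl oxidase that binds Snai1, differed by -0.04 and -0.77. Of 18 genes that act on the turnover or localisation of Snail proteins, 16 were lower in KO Flk1+ and 13 in KO Flk1- cells, with medians of -0.26 and -0.10 and 0 of them 2-fold apart. Among them Prkd1, a kinase that phosphorylates Snai1, differed by -0.49 and -0.78, the zinc transporter gene Slc39a6 by -0.29 and -0.63, the ubiquitin ligase gene Fbxo45 by -0.58 and -0.15, and the kinase gene Lats2 by -0.36 and -0.46. Protein levels were not measured.

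Among bHLH partners and antagonists of Twist, 8 of 13 tested were lower in KO Flk1+ and 10 of 12 in KO Flk1- cells, with medians of -0.06 and -0.30, and the count in Flk1+ cells is near the 57.4% of all genes. Hand1, a mesoderm factor that can pair with Twist1, was at 6.76 in KO and 9.25 in F/F Flk1+ cells, and at 5.00 in KO and 8.21 in F/F Flk1- cells, the only one 2-fold apart. Id1, Id2 and Id4, which encode inhibitors that sequester E proteins, differed by 0.56, 0.01 and 0.35 in Flk1+ cells and by -0.36, -0.64 and -0.75 in Flk1- cells.

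Of other transcription factors linked with the transition or with gastrulation, 10 of 19 were lower in KO Flk1+ and 12 of 18 in KO Flk1- cells, with medians of -0.07 and -0.24, and here too the count in Flk1+ cells is near that of all genes. The Flk1- median was -0.19 with values below the floor raised to it. Foxf1, a factor of lateral mesoderm, differed by -2.58 in Flk1+ and -2.28 in Flk1- cells, and Ets1 by -1.17 in both. Prrx2, a mesenchymal homeobox gene, was at 5.46 in KO and 4.66 in F/F Flk1+ cells but at 3.47 in KO and 4.34 in F/F Flk1- cells. Eomes, a T-box gene of early gastrulation, differed by -0.82 in Flk1+ and 0.35 in Flk1- cells. Of inducing ligands and receptors, 14 of 21 were lower in KO Flk1+ and 11 of 22 in KO Flk1- cells, with medians of -0.11 and 0.02 (-0.01 with values below the floor raised to it), which differ little from the shares and medians of all genes. Bmp4 differed by -1.60 and -2.06, Wnt5a by -0.91 and -1.16 and Fgf3 by -1.64 and -0.60, and Nodal, a ligand that patterns the epiblast, by 1.03 and 0.78.

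Markers of other cells differed between KO and F/F cells in both directions. The summed linear level of 6 markers of undifferentiated stem cells on the array was 244 in KO and 78.5 in F/F Flk1+ cells, and 1092 in KO and 631 in F/F Flk1- cells, with Zfp42 and Esrrb below the floor in both Flk1+ groups. That of 5 cardiac markers was 118 in KO and 315 in F/F Flk1+ cells, and 78.8 in KO and 457 in F/F Flk1- cells. Among these Actc1 and Nkx2-5 were below the floor in both KO groups, and Nkx2-5 also in F/F Flk1+ cells. The sum of 5 primitive erythroid markers was 29.3 in KO and 117 in F/F Flk1+ cells, and 32.3 in KO and 2329 in F/F Flk1- cells. In both KO groups Hba-x, Hbb-bh1, Hbb-y and Klf1 were below the floor, so the KO sums are mostly background. The 7 endoderm markers went both ways, with Ttr differing by -2.11 and -2.68 in Flk1+ and Flk1- cells and Cer1 by 2.18 and 0.70. Their sum, which follows the brightest probe sets, was 403 in KO and 289 in F/F Flk1+ cells, and 563 in KO and 532 in F/F Flk1- cells. Of 8 feeder fibroblast markers, which include Col1a1, 1 was above the floor in KO and 3 in F/F cells of either fraction, and Col1a2, Thy1, Dcn, Lum and Fap were below it on all 4 arrays. Of 5 neural crest markers, 1 or 2 were above the floor on each array, and Sox10, Tfap2a and Ednrb were below it throughout. As a sign of RNA quality, the Gapdh control probe sets at the 3' end exceeded those at the 5' end, in log2 units, by 1.47 in KO and 2.05 in F/F Flk1+ cells, and by 1.99 in KO and 1.76 in F/F Flk1- cells. The part of cell makeup and RNA quality in the differences of Snai2, Zeb1, Zeb2, Twist1 and Twist2 was not tested. Nor was it tested for the epithelial genes, the mesenchymal genes or the other lists.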

How the data were processed

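Total RNA (50 ng) of the sorted cells was amplified to cDNA, labelled with biotin and hybridised to Affymetrix arrays, per the labels' protocols. The authors deposited 1 table of log2 expression values for 45141 probe sets; RMA and limma are named per the submitters' processing notes, with version and role not given in the sources used here. The deposited log2 values were used without further normalization. The 104 control probe sets were left out, and 28898 probe sets had 1 gene in the platform annotation, 551 had several and 15588 none. All 13 member probe sets are reported, and a gene with several is represented by the one with the highest mean over the 4 arrays. A gene was tested in a comparison when above the floor (3.19, the 40th percentile) on at least 1 of its 2 arrays, and called at a difference of 1 (2-fold). Where the lower value was under the floor, the fold was computed against the floor and is a lower bound. The counting was tested on simulated data with python 3.11.15, numpy 2.4.6 and pandas 2.3.3, and limma 3.58.1 made the other normalizations. The number of arrays limits the precision. The members and gene lists were chosen with earlier results of these data known. Named genes were all members, Kdr, Cdh1, Cdh2, up to 4 genes per list with the largest genotype difference, and the 3 genes nearest in profile. Listed genes shown for their promoters, single markers and the genes of the closing observations were chosen after their values were seen. The alternatives were 1.5-fold or 3-fold in place of 2-fold, no floor or one at percentile 50, quantile normalization, median centring, cyclic loess (span 0.3, 3 rounds), averaging over probe sets, and leaving out the less specific probe sets (suffixes _s_at, _x_at and _a_at).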

Additional observations from a re-analysis of the deposited data

Results flagged for a closer look

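Twist1 is the member whose genotype difference had opposite signs in the fractions, 0.24 in Flk1+ and -0.49 in Flk1- cells, a difference of differences of 0.73. It was above the floor on all 4 arrays, with 6.07 in KO and 5.83 in F/F Flk1+ cells and 5.19 in KO and 5.68 in F/F Flk1- cells. Of 9555 genes above the floor on all 4 arrays, 159 (1.66%) had a difference of differences as high, and 93 of these had signs opposite in the same way. With 1 array per group the difference between the fractions was not tested.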

How the results depend on the processing

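Over the alternatives run, 0 members were 2-fold or more higher in KO than in F/F cells, in Flk1+ as in Flk1- cells. Among so few genes this count is near the small share of all genes. With the 1.5-fold rule the counts were 4 lower in KO Flk1+ cells (3 with Twist2 at its bound of 1.26-fold), 4 higher in Flk1+ than Flk1- KO cells and 3 higher in Flk1+ than Flk1- F/F cells. Averaged over its probe sets, Zeb2 was under 1.5-fold in all of these comparisons, and Zeb1 was so between genotypes in both fractions. With the 3-fold rule each count of called members was 0, in KO against F/F Flk1+ and Flk1- cells and in both sort comparisons. The Twist2 call in Flk1+ cells gave a count of 0 with the floor at the median and with lower values raised to the floor, an alternative chosen after seeing the data. With the mean of the probe sets Zeb1 lost its calls, leaving 1 lower member in KO Flk1- cells (Snai2), 1 higher in KO Flk1+ against KO Flk1- cells (Snai2) and 0 in F/F cells. Quantile normalization, median centring and cyclic loess each brought Twist1 past 2-fold in the KO sort comparison, for a count of 3, and changed no other count. Over these settings the Snai2 difference ran from -0.70 to -0.62 in Flk1+ and from -1.36 to -1.28 in Flk1- cells, and that of Zeb1 from -0.86 to -0.52 and from -1.38 to -0.56. No paired analysis was possible because each group has 1 array and the fractions are different cell populations, not replicates. Signal limits what can be said of Snai1, Snai3 and Twist2.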

Other observations

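Of 9555 genes above the floor on all 4 arrays, 1601 (16.8%) had the signs of Twist1, higher in KO Flk1+ and lower in KO Flk1- cells. In the mesenchymal list 1 of 11 such genes, Mmp14, had them, at 0.09 and -0.49. Foxc1 and Pax3, picked from the other lists after their values were seen, are given as values only. Foxc1, a factor of paraxial mesoderm, was at 7.61 in KO and 6.84 in F/F Flk1+ cells, and at 5.58 in KO and 6.11 in F/F Flk1- cells. Pax3, a factor of dorsal neural tube, neural crest and muscle precursors, was at 5.00 in KO and 4.40 in F/F Flk1+ cells, and at 3.87 in KO and 4.23 in F/F Flk1- cells.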
